A study of Arabidopsis thaliana with 6 samples.

Results

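Class III peroxidases are secreted haem enzymes of plants, coded by a large gene family and set apart here from the peroxidases known as root hair genes. The 60 genes of this group were taken by locus, and 44 of them had a probe set of their own among the 13286 named genes of the array. Of the other 16, 7 were covered only by probe sets shared with further genes; none of the 16 was analysed here. The rule that sets the group, membership of the family without the root hair peroxidases, uses no measured value. The group was, however, chosen with earlier results of these data known.

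The 6 Affymetrix ATH1 arrays (several short probes, a probe set, per transcript) measured total RNA from roots of Arabidopsis thaliana at 7 days of age, raised on upright plates of diluted MS medium. Each of 3 genotypes had 2 arrays: AtRXR1 overexpression, AtRXR1 mutant and wild type (WT). The labels name neither the promoter of the overexpressor, nor the allele of the mutant, nor the number of lines, and all groups were otherwise grown alike. AtRXR1 belongs to the DUF506 family and is known to hold back root hair growth. No probe set carried its name, so the genotypes were not checked on the gene itself. The labels do not say whether the replicates are separate cultures. The p-values therefore rest on the spread of these arrays alone, and that spread may be technical.

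Class III peroxidases work in the cell wall. With hydrogen peroxide they oxidise phenolic compounds, which joins monolignols into lignin, links extensin proteins and stiffens the wall; in another reaction they make reactive oxygen species, which can loosen it. In roots they are known for lignifying xylem and the Casparian strip of the endodermis, for the balance of reactive oxygen at the root tip, where the transcription factor UPB1 represses several of them, and for defence.

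WT replicate 2 stood apart. Its log2 signals correlated with those of the other 5 arrays at r = 0.9909 to 0.9932 across probe sets, against 0.996 to 0.9979 among the others. The median replicate SD of the peroxidases on the log2 scale was 0.0697 in the overexpressor, 0.0766 in the mutant and 0.185 in WT, against 0.0556, 0.0634 and 0.112 over all 22746 probe sets. Of the 44 genes, 20 had their highest signal in WT replicate 2 (45.5%, against 25.1% of all probe sets). Differences of named peroxidases and medians of lists against WT are therefore given with and without that array. Without it, WT is 1 array. Neither value is a corrected one, and which WT array is nearer the level of WT roots was not tested. Counts of genes without overlap or past a p use both WT arrays. In whole roots, fewer cells of a type and less RNA per cell cannot be told apart.

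In AtRXR1 overexpressor roots 1 of the 44 peroxidase genes passed the test, AT5G64120 (PRX71), a peroxidase known from lignin formation and from limiting cell expansion. Its log2 signal was 7.38 and 7.46 in the overexpressor, 7.90 and 8.02 in the mutant, and 8.46 and 8.45 in WT. The 3 groups did not overlap, with the overexpressor lowest, the mutant between and WT highest. The overexpressor minus WT difference was -1.03 ± 0.0888 on the log2 scale, or 2.05-fold lower (SE, n = 2 per group, limma adjusted p = 0.0224). Over all probe sets 0.101% were called in this comparison, all lower. The root hair peroxidase AT3G49960, which is outside this group, was called as well, at -1.31 ± 0.0895 (SE, adjusted p = 0.017), and at -1.26 without WT replicate 2 (adjusted p = 0.0112).

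Without WT replicate 2 AT5G64120 was at -1.04 (adjusted p = 0.0217). The call ended without either overexpressor array (adjusted p = 0.433 without replicate 1, and 0.344 without replicate 2, where the change was -1.07), and without either mutant array (-1.03, adjusted p = 0.11 for each), where only the variance and the degrees of freedom differ. In the mutant its difference from WT was -0.50 ± 0.0888 (SE, adjusted p = 0.524), which passed only without WT replicate 1 (-0.49, adjusted p = 0.0243) among the alternatives run and was at -0.50 without WT replicate 2 (adjusted p = 0.25). The difference between overexpressor and mutant was -0.54 ± 0.0888 (adjusted p = 0.227). It passed with array quality weights (adjusted p = 0.0284) and not under the other alternatives, whose adjusted p ran from 0.0587 to 1.0.

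Summed signals of markers of other cells lay in the same order. The 4 root hair markers measured (of 12) were EXPA7, EXPA18, XTH26 and GH9C1. Their summed linear signal was 663 and 727 in the overexpressor, 1037 and 1126 in the mutant, and 1182 and 1244 in WT. The sum of the 2 measured markers of green shoot tissue (of 9; PSAN and RCA) was 515 and 490 in the overexpressor, 573 and 657 in the mutant, and 714 and 738 in WT. The order of the groups was that of AT5G64120 in both sums, and their part in its change was not tested. EXPA18 by itself overlapped between mutant (log2 signals of 8.59 and 8.87) and WT (8.70 and 8.82). No marker of endodermis, xylem, root cap or dividing cells was measured under a name.

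**Figure D1:**
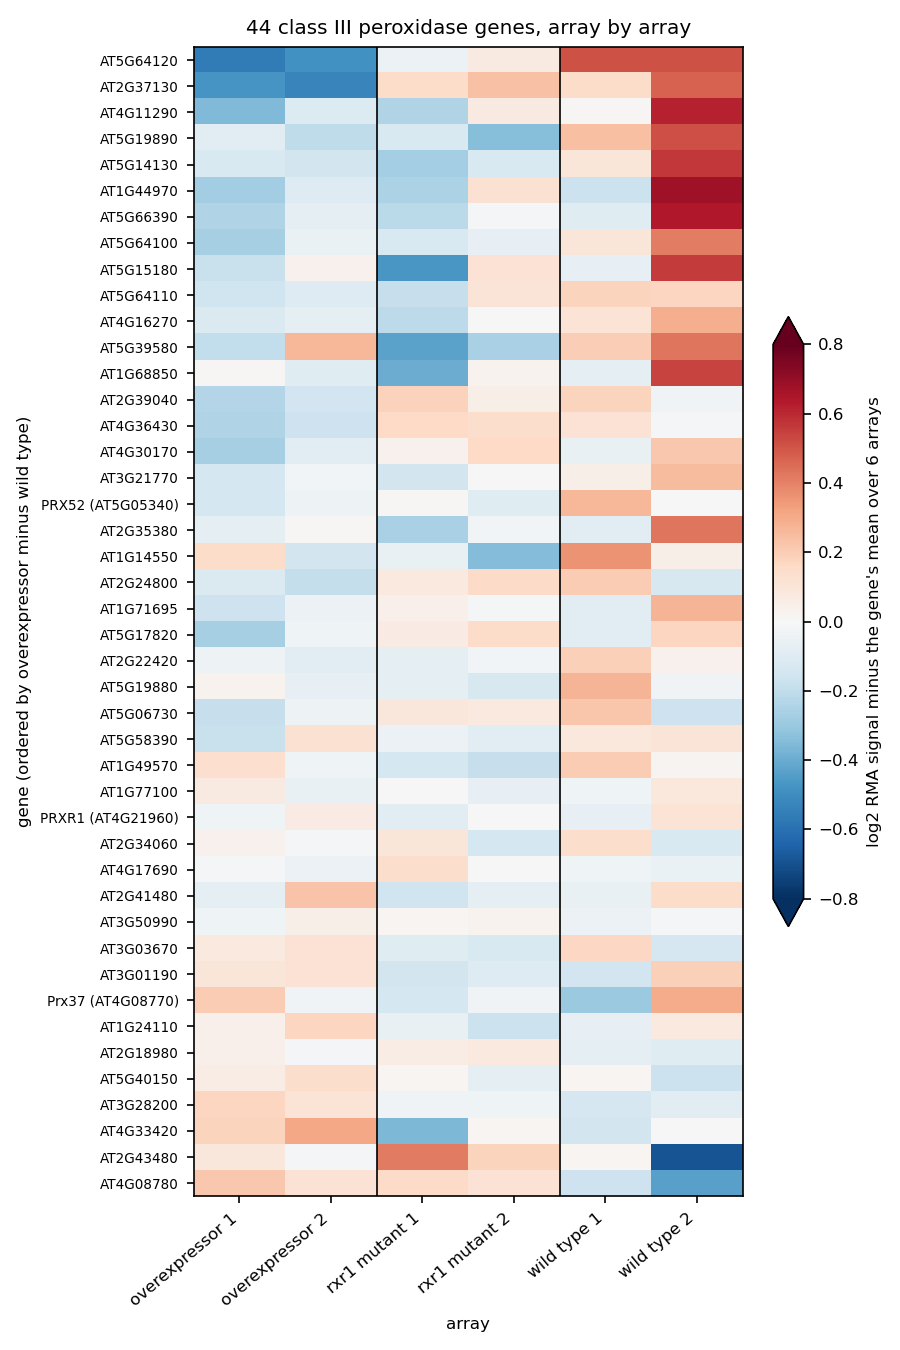
Log2 RMA signal of the 44 peroxidase genes in each of the 6 arrays (columns) minus the gene's own mean, with genes ordered by overexpressor minus wild type. AT5G64120 and AT2G37130 are low in both overexpressor arrays, while most strong colours lie in the column of wild type 2. There 20 of the 44 genes have their highest signal (45.5%, against 25.1% of all probe sets).

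AT5G64120, AT2G37130 and AT5G39580 are known together from work in which raised levels of each protected leaves against the grey mould Botrytis cinerea. AT2G37130 had log2 signals of 10.68 and 10.63 in the overexpressor, 11.30 and 11.39 in the mutant, and 11.30 and 11.63 in WT. The overexpressor arrays lay below the other 4, and mutant and WT met at 11.30. Its difference from WT was -0.81 ± 0.121 in the overexpressor (SE, adjusted p = 0.0833) and -0.12 ± 0.121 in the mutant (adjusted p = 0.752), the second of which was 0.04 without WT replicate 2.

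The overexpressor minus mutant difference in AT2G37130 was -0.69 ± 0.121 (SE, adjusted p = 0.263). This difference passed in fits that gave the WT spread less part in the variance, with adjusted p = 0.0342 from the 4 arrays of those lines alone or without either WT array, and 0.0179 with array quality weights. The whole range over the alternatives was 0.0179 to 1.0. Against WT, the gene passed with the replicate number as a block (adjusted p = 0.0287), and without WT replicate 1 (-0.97, adjusted p = 0.00639). It was at -0.65 without WT replicate 2 (adjusted p = 0.0595).

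AT5G39580, which is also reported to promote root hair growth in the cold, showed another order. Its log2 signal was 6.14 and 6.60 in the overexpressor, 5.91 and 6.08 in the mutant, and 6.54 and 6.76 in WT. The mutant was the lowest group and did not overlap the others, while overexpressor and WT did overlap. Its differences were -0.28 ± 0.164 for the overexpressor and -0.66 ± 0.164 for the mutant against WT (SE, adjusted p = 0.535 and 0.524), and 0.38 ± 0.164 for overexpressor minus mutant (adjusted p = 0.995). The first 2 were -0.17 and -0.54 without WT replicate 2, and the third was 0.61 and 0.15 without overexpressor replicate 1 and 2.

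The list of defence peroxidases had 5 of 8 members measured. In the overexpressor 4 of 5 had negative differences from WT (48.4% of all probe sets) with a median of -0.281. Of the 5, 1 was called (0.101% of all) and 2 had an unadjusted p under 0.05 (11.8% of all). In the mutant 5 of 5 were negative (51.6% of all) with a median of -0.405. None was called (0.0044% of all), and 3 had an unadjusted p under 0.05 (9.33% of all). The median over all probe sets was 0.006 in the overexpressor and -0.005 in the mutant. Leaving out WT replicate 2, the list's medians were -0.36 and -0.497, with 4 and 3 of 5 negative. AT1G14550 differed from WT by -0.20 in overexpressor and -0.41 in mutant roots (-0.36 and -0.56 without WT replicate 2, -0.05 and -0.25 without WT replicate 1), and Prx37 (AT4G08770), whose overproduction is known to dwarf plants, by 0.09 and -0.08. Prx37 was at 0.39 and 0.21 without WT replicate 2, and at -0.21 and -0.38 without WT replicate 1. Early stress genes had low signals in the mutant, without passing the test (smallest adjusted p against WT 0.524). STZ and CML38, the 2 measured of 9 such markers, summed to 454 and 646 linear units in the overexpressor, 102 and 274 in the mutant, and 385 and 365 in WT. Their part in the values of the defence peroxidases was not tested.

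**Figure D2:**
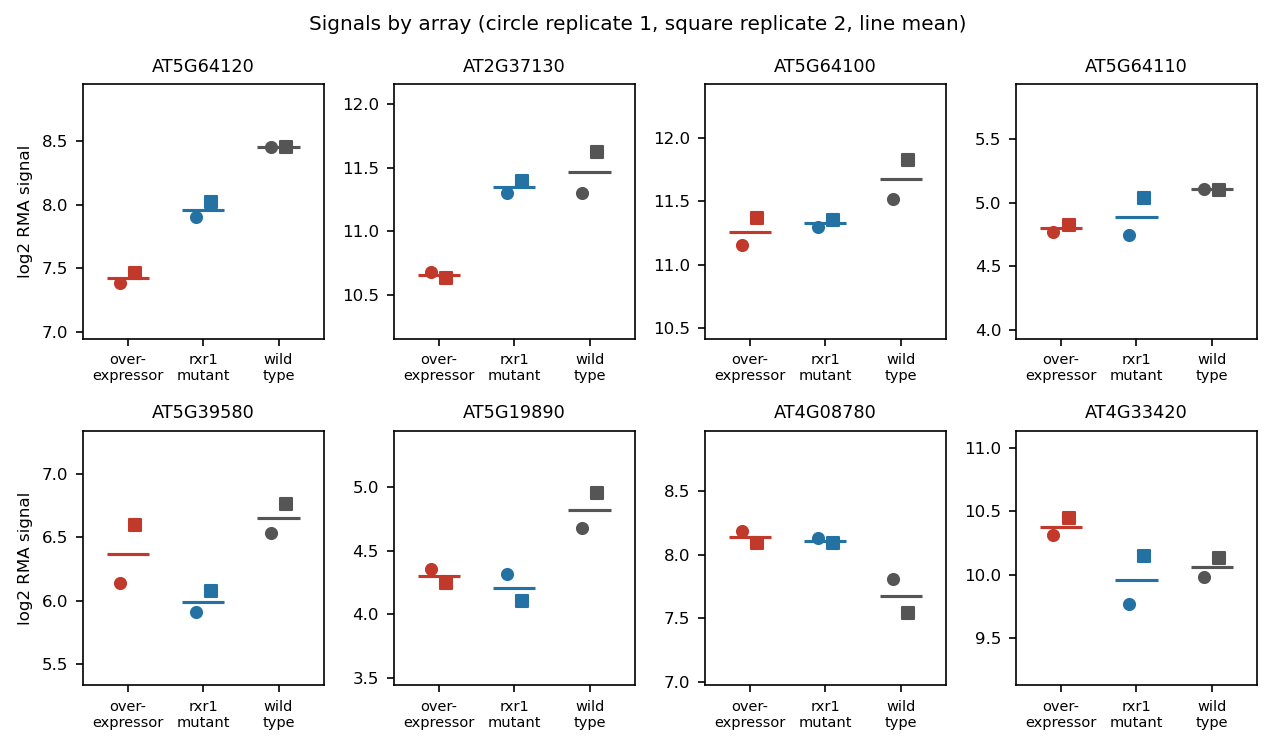
Log2 RMA signal of 8 peroxidase genes by array; each panel spans 2 log2 units, circles are replicate 1, squares replicate 2 and lines group means. The overexpressor lies lowest in AT5G64120 and AT2G37130, the mutant lies lowest in AT5G39580, and both lines lie above wild type in AT4G08780.

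AT5G64120 is the last of 3 neighbouring peroxidase genes with no other protein-coding gene between them. AT5G64100, reported like AT5G39580 to act in root hairs in the cold, had log2 signals of 11.15 and 11.37 in the overexpressor, 11.30 and 11.36 in the mutant, and 11.52 and 11.83 in WT. The dim AT5G64110 had 4.77 and 4.83 in the overexpressor, 4.74 and 5.03 in the mutant, and 5.11 and 5.10 in WT. Both lines lay below WT in both genes, without overlap.

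In the overexpressor AT5G64100 was at -0.41 ± 0.128 and AT5G64110 at -0.31 ± 0.112 against WT (SE, adjusted p = 0.319 and 0.374). In the mutant they were at -0.35 and -0.22 (adjusted p = 0.525 and 0.57). Leaving out WT replicate 2, AT5G64100 stood at -0.26 in overexpressor and -0.19 in mutant roots, and AT5G64110 at -0.31 and -0.22. Without WT replicate 1, AT5G64100 stood at -0.57 and -0.50. All 3 neighbours had negative values in both lines, and AT5G64120 passed in the overexpressor. Negative values were found in 30 of the 44 genes in the overexpressor (48.4% of all probe sets) and in 31 in the mutant (51.6% of all). Whether the probe sets of the 3 neighbours tell the copies apart was not tested.

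Prx37 and AT4G08780 are neighbours as well. AT4G08780 had log2 signals of 8.19 and 8.09 in the overexpressor, 8.13 and 8.09 in the mutant, and 7.81 and 7.54 in WT. All 4 arrays of the lines lay above WT, and the lines overlapped each other. Its difference from WT was 0.46 ± 0.111 in the overexpressor and 0.44 ± 0.111 in the mutant (SE, adjusted p = 0.228 and 0.524), and 0.33 and 0.30 without WT replicate 2. In the third pair, AT5G19880 and AT5G19890, both with dim signals, AT5G19890 had 4.35 and 4.24 in the overexpressor, 4.32 and 4.10 in the mutant, and 4.68 and 4.96 in WT. Both lines lay below WT, with differences of -0.52 ± 0.126 and -0.61 ± 0.126 (adjusted p = 0.23 and 0.524), and -0.38 and -0.47 without WT replicate 2. Overexpressor and mutant values of AT5G19880 were -0.14 and -0.22, or -0.29 and -0.37 without that array.

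Peroxidases of lignin and the Casparian strip had 8 of 12 members measured. In the overexpressor 6 of 8 were negative against WT (48.4% of all probe sets), with a median of -0.324. AT5G64120 was the 1 called (0.101% of all), and 2 had an unadjusted p under 0.05 (11.8% of all). In the mutant 8 of 8 were negative (51.6% of all), with a median of -0.248. There 0 were called (0.0044% of all) and 1 had an unadjusted p under 0.05 (9.33% of all). Without WT replicate 2 the medians were -0.149 and -0.077, and without WT replicate 1 they were -0.447 and -0.377. PRX72 (AT5G66390), which acts in lignin formation, had 9.59 and 9.76 in the overexpressor, 9.61 and 9.82 in the mutant, and 9.73 and 10.47 in WT. Only WT replicate 2 was apart. The difference was -0.43 ± 0.222 in the overexpressor (adjusted p = 0.493) and -0.39 ± 0.222 in the mutant (adjusted p = 0.589), and -0.06 and -0.02 without that array. Without WT replicate 1 it was -0.80 and -0.76.

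AT1G44970, known from the Casparian strip and from the anther tapetum, behaved likewise. It had 7.30 and 7.48 in the overexpressor, 7.32 and 7.70 in the mutant, and 7.41 and 8.25 in WT. Its difference of -0.44 ± 0.26 in the overexpressor (adjusted p = 0.537) was -0.02 without WT replicate 2, and that of -0.32 ± 0.26 in the mutant (adjusted p = 0.691) was 0.10. Without WT replicate 1 they were -0.87 and -0.74. The lignin peroxidases AT2G22420, PRX52 (AT5G05340) and PRX25 (AT2G41480) were measured as well, PRX52 with a dim mean log2 signal of 4.07. In that order they were at -0.18, -0.22 and 0.03 in the overexpressor and at -0.17, -0.18 and -0.16 in the mutant. The limma adjusted p ran from 0.483 to 0.942 over the 6 values. The same genes were at -0.25, -0.35 and 0.14 in overexpressor and -0.24, -0.31 and -0.06 in mutant roots without WT replicate 2.

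AT4G33420, a peroxidase of lignifying xylem, had the largest positive difference between the lines. Its log2 signal was 10.31 and 10.44 in the overexpressor, 9.77 and 10.14 in the mutant, and 9.98 and 10.13 in WT. The overexpressor arrays were the highest of the 6, and mutant and WT overlapped. It was at 0.32 ± 0.137 in the overexpressor against WT (SE, adjusted p = 0.428), or 0.39 without WT replicate 2, and at 0.42 ± 0.137 against the mutant (adjusted p = 0.839). Leaving out mutant replicate 1 or 2 gave 0.23 and 0.60 for that second difference.

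The 3 root tip peroxidases that UPB1 represses were all measured. AT4G11290 had 8.92 and 9.16 in the overexpressor, 9.03 and 9.34 in the mutant, and 9.28 and 9.89 in WT. The overexpressor lay below WT, while the mutant overlapped it. The difference was -0.55 ± 0.206 in the overexpressor (SE, adjusted p = 0.382) and -0.24 without WT replicate 2. In the mutant it was -0.40 ± 0.206 (adjusted p = 0.569), and -0.10 without that array. Overexpressor and mutant stood at -0.30 and -0.31 in AT4G16270, and at -0.19 and 0.06 in AT5G17820. These were -0.21 and -0.21, and -0.07 and 0.19, without WT replicate 2. The median of the 3 was -0.298 in the overexpressor and -0.306 in the mutant, or -0.206 and -0.095 without WT replicate 2. UPB1 itself had 7.92 and 7.70 in the overexpressor, 8.03 and 7.96 in the mutant, and 7.88 and 7.93 in WT, with differences of -0.10 ± 0.102 and 0.09 ± 0.102 (SE, adjusted p = 0.74 and 0.781), or -0.08 and 0.11 without WT replicate 2.

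The seed coat peroxidase PER36 (AT3G50990), which thins the outer wall of mucilage cells, had dim signals of 4.33 to 4.42 in all 6 arrays. Its differences were 0.04 in the overexpressor and 0.05 in the mutant, or 0.05 and 0.07 without WT replicate 2.

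**Figure D3:**
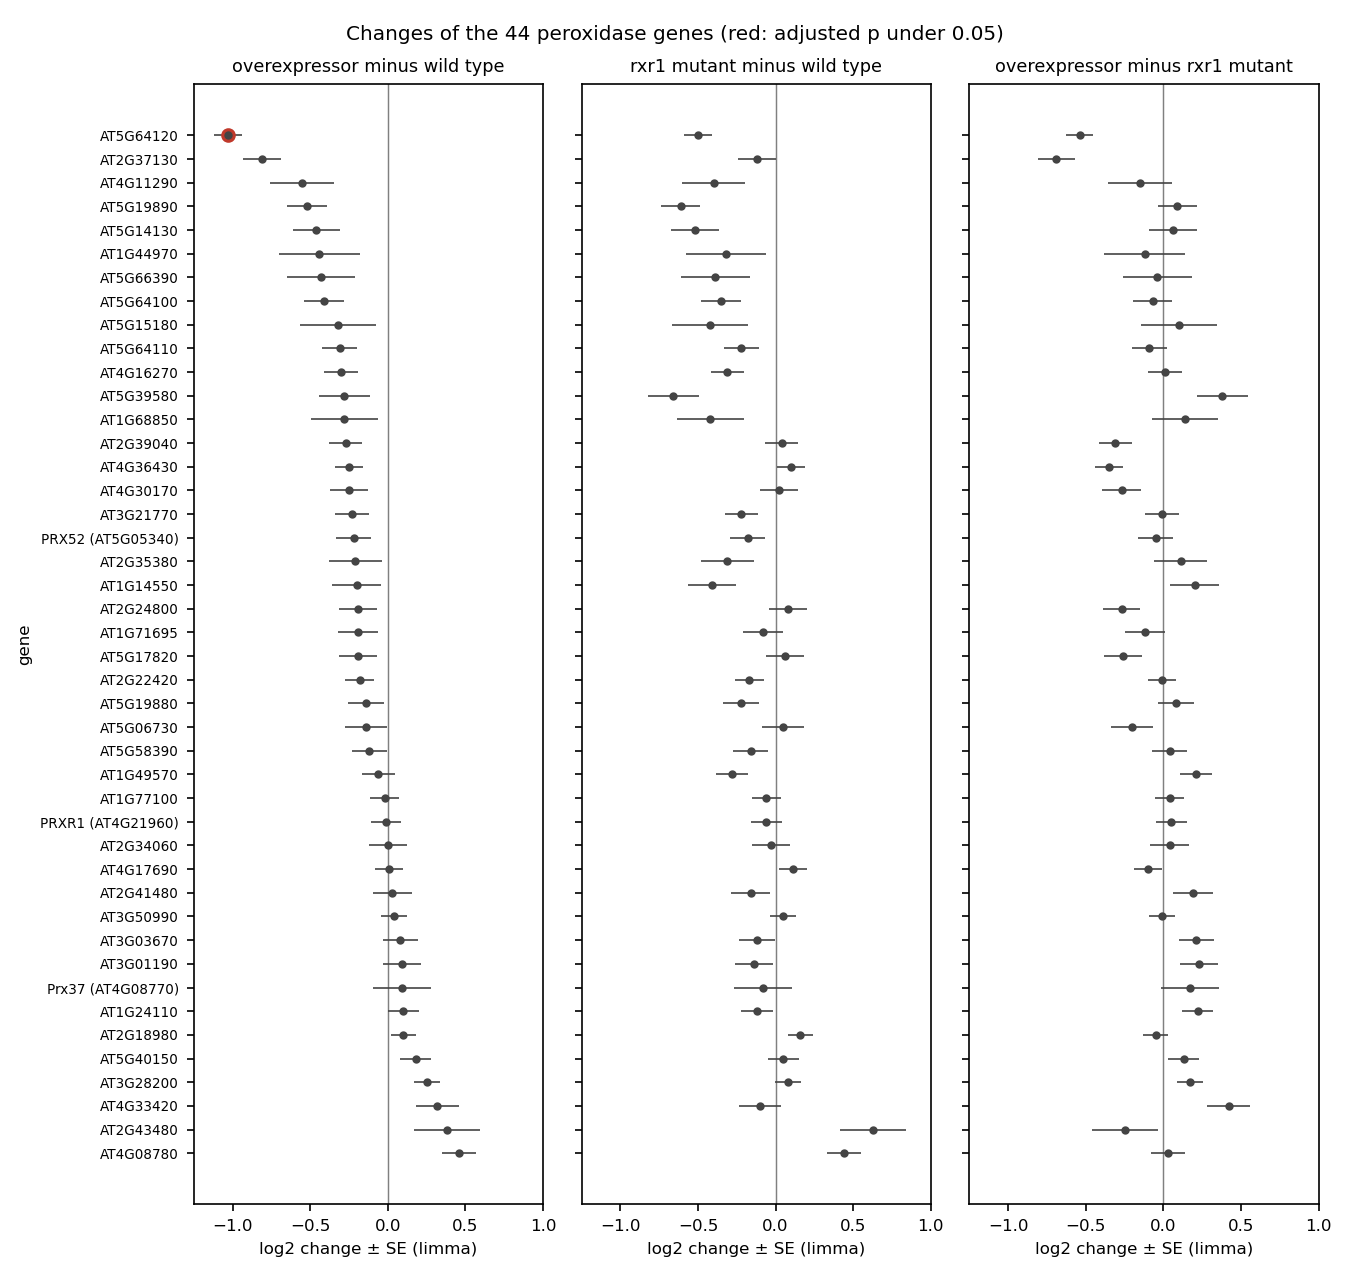
Log2 change with its SE (limma, n = 2 per group) of the 44 peroxidase genes for overexpressor minus wild type, rxr1 mutant minus wild type, and overexpressor minus rxr1 mutant. AT5G64120, at -1.03 in the first panel, is the only gene with an adjusted p under 0.05 (red); the first 2 panels share their wild-type arrays.

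Over the whole group, 30 of the 44 genes had negative differences in the overexpressor against WT (48.4% of all probe sets), with a median of -0.193. In 14 genes both overexpressor arrays lay below both WT arrays, which held for 19.8% of all probe sets, and in 5 genes above (21.6% of all). At an unadjusted p under 0.05 there were 12 genes (11.8% of all probe sets), 10 of them lower (6.48% of all) and 2 higher (5.36% of all). Without WT replicate 2, 28 of 44 were negative (52.0% of all) and the median was -0.09. It was -0.114 without WT replicate 1.

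The largest positive values with no overlap, beside AT4G08780 and AT4G33420, were those of AT3G28200 and AT5G40150. AT3G28200 had 8.19 and 8.13 in the overexpressor, 7.99 and 7.99 in the mutant, and 7.88 and 7.94 in WT. Its arrays varied little, and the difference from WT was 0.25 ± 0.0837 in the overexpressor (SE, adjusted p = 0.343), or 0.28 without WT replicate 2. AT5G40150 had 7.40 and 7.49 in the overexpressor, 7.36 and 7.27 in the mutant, and 7.36 and 7.17 in WT, with a difference of 0.18 ± 0.0993 (adjusted p = 0.518) that was 0.09 without WT replicate 2 (adjusted p = 0.769).

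In the mutant 0 of the 44 genes passed the test by limma, against 0.0044% of all probe sets and 10 genes at an unadjusted p under 0.05 (9.33% of all), 8 lower (4.33% of all) and 2 higher (4.99% of all). Of the 44, 31 were negative against WT (51.6% of all probe sets), with a median of -0.133. The arrays did not overlap in 14 genes that were lower (19.0% of all) and 7 that were higher (19.1% of all). Without WT replicate 2, 28 were negative (52.7% of all) and the median was -0.059. AT5G14130 had 7.15 and 7.13 in the overexpressor, 7.01 and 7.16 in the mutant, and 7.37 and 7.84 in WT. Both lines lay below WT, with -0.46 ± 0.153 in the overexpressor and -0.52 ± 0.153 in the mutant (SE, adjusted p = 0.337 and 0.524), and -0.23 and -0.29 without WT replicate 2. Without WT replicate 1 they were at -0.70 and -0.76.

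AT2G43480 had the largest positive value of the mutant. Its log2 signal was 6.53 and 6.44 in the overexpressor, 6.86 and 6.62 in the mutant, and 6.46 and 5.75 in WT. WT replicate 2 was the low array, and the mutant difference of 0.63 ± 0.213 (SE, adjusted p = 0.524) was 0.28 without it and 0.98 without WT replicate 1. AT2G18980 had 10.30 and 10.25 in the overexpressor, 10.32 and 10.34 in the mutant, and 10.18 and 10.16 in WT. Both lines lay above WT, the mutant by 0.16 ± 0.0822 (SE, adjusted p = 0.571), or 0.14 without WT replicate 2. The dim AT4G17690 had 3.72 and 3.68 in the overexpressor, 3.87 and 3.73 in the mutant, and 3.69 and 3.68 in WT, with a mutant difference of 0.11 ± 0.0893 (adjusted p = 0.677). That was 0.11 without WT replicate 2, and 0.05 and 0.18 without mutant replicate 1 and 2.

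Between the overexpressor and the mutant, where no WT mean enters the difference, 0 of the 44 genes passed (0.0132% of all probe sets), and 5 had an unadjusted p under 0.05 (5.05% of all), 4 lower (2.73% of all) and 1 higher (2.31% of all). The signs were even, with 21 negative (48.6% of all) and 23 positive, and the median was 0.019, against 0.003 over all probe sets. Without overlap, 12 genes were lower (20.3% of all) and 11 higher (20.3% of all). Beside AT2G37130 and AT5G64120, AT4G36430 had 8.66 and 8.74 in the overexpressor, 9.06 and 9.05 in the mutant, and 9.02 and 8.89 in WT. The overexpressor was lowest, at -0.35 ± 0.0894 against the mutant (SE, adjusted p = 0.55).

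AT2G39040 had 8.01 and 8.09 in the overexpressor, 8.43 and 8.29 in the mutant, and 8.42 and 8.21 in WT. The overexpressor was again lowest, at -0.31 ± 0.106 against the mutant (adjusted p = 0.844). AT3G01190 had 11.62 and 11.65 in the overexpressor, 11.38 and 11.42 in the mutant, and 11.38 and 11.72 in WT. The lines did not overlap, but WT spanned both, and the overexpressor minus mutant difference was 0.23 ± 0.121 (adjusted p = 0.999). The dim AT1G24110, with 3.86 and 3.99 in the overexpressor, 3.76 and 3.65 in the mutant, and 3.75 and 3.90 in WT, was at 0.22 ± 0.101 (adjusted p = 0.999).

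The 4 measured root hair peroxidases (of 6) were all lower in the overexpressor than in WT without overlap, which held for 14 of the 44 genes described here and 19.8% of all probe sets. Their median was -0.98 (-0.92 without WT replicate 2), against -0.193 for the 44, and 1 of the 4 was called (0.101% of all). Against the mutant their median in the overexpressor was -0.806, against 0.019. This difference between the groups of genes was not tested, and the groups were divided with earlier results of these data known. AT5G39580 and AT5G64100, the measured genes reported to act in root hairs, had a median of -0.348 in the overexpressor and -0.502 in the mutant, or -0.213 and -0.368 without WT replicate 2.

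Signal strength and WT replicate went together. Among the 29 peroxidases with a mean log2 signal of at least 6, 17 (58.6%) were highest in WT replicate 2, against 32.7% of the 13532 probe sets of that brightness. Among the 15 with a lower mean 8 (53.3%) were highest in WT replicate 1, against 29.2%. The WT arrays were over 0.5 log2 units apart in 8 of the 44 genes (18.2%, against 7.03% of all probe sets), which held for 1 gene in the mutant and 0 in the overexpressor. AT1G44970, PRX72, AT5G15180, AT1G68850, AT4G11290, Prx37 and AT2G35380, picked out after their values were seen, were 0.85, 0.74, 0.63, 0.62, 0.61, 0.59 and 0.51 higher in WT replicate 2 than in WT replicate 1. Without WT replicate 2, AT5G15180, AT1G68850 and AT2G35380 were at -0.01, 0.03 and 0.05 in the overexpressor. Without WT replicate 1 they were at -0.63, -0.59 and -0.46.

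**Figure D4:**
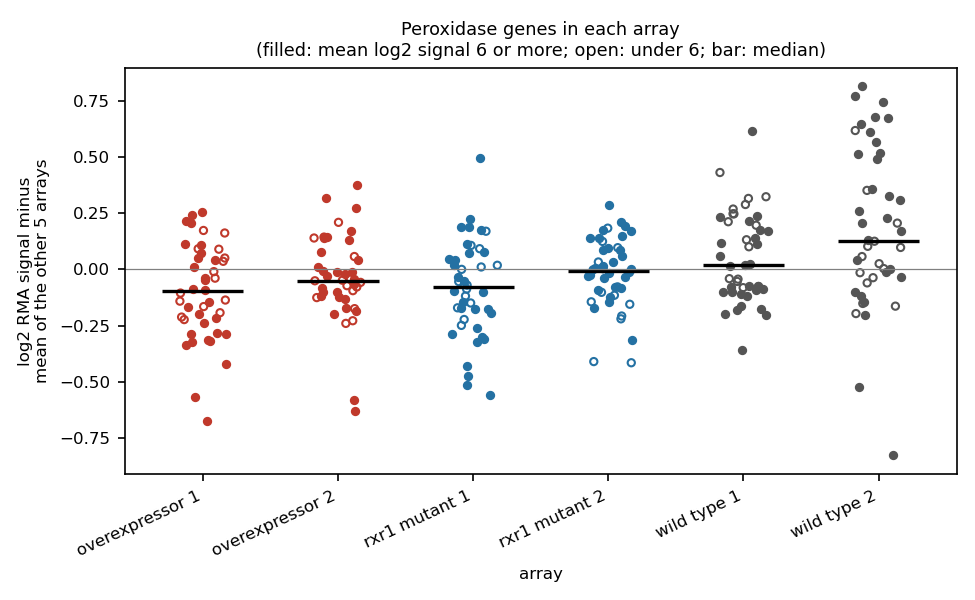
Log2 RMA signal of each of the 44 peroxidase genes in 1 array minus the mean of the other 5 arrays; filled points have a mean log2 signal of 6 or more, open points less, and bars are medians. The median lies between -0.098 and -0.007 in the arrays of both lines, and is 0.021 in wild type 1 and 0.127 in wild type 2.

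A probe set's signal depends on its probes, so no order of abundance between genes is given. The median replicate SD of the peroxidases was above that of all probe sets in each genotype. Within genes, signals ranged over less than 0.5 log2 units across all 6 arrays in 26 of the 44 (not counted over all probe sets). PRXR1 (AT4G21960), for example, had 13.03 and 13.12 in the overexpressor, 12.98 and 13.06 in the mutant, and 12.99 and 13.17 in WT. It differed from WT by -0.01 ± 0.0984 and -0.06 ± 0.0984 (SE, adjusted p = 0.989 and 0.857), or 0.08 and 0.03 without WT replicate 2. AT4G30170 lay between 11.82 and 12.30 in the 6 arrays, with -0.25 ± 0.123 and 0.02 ± 0.123 (adjusted p = 0.468 and 0.97), or -0.12 and 0.16 without that array. AT1G77100 stayed between 3.57 and 3.72.

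Genes around the peroxidases were sparsely covered. Of the NADPH oxidases, which supply superoxide, 3 of 10 were measured and 0 called, with medians of -0.299 in the overexpressor and -0.215 in the mutant, or -0.001 and 0.047 without WT replicate 2. All 3 were highest in that array. The measured ones were AT1G19230, AT4G25090 and AT4G11230, at -0.26, -0.50 and -0.30 in the overexpressor, and the last of these was at 0.20 without that array. Of 19 genes of monolignol synthesis 2 were measured and 0 called (HCT with -0.08 in overexpressor and -0.06 in mutant roots, CCR2 with 0.04 and -0.10). Their signs turned in 3 of these 4 values without WT replicate 2, where HCT had 0.14 and 0.16 and CCR2 0.17 and 0.03, and the list's medians of -0.021 and -0.08 became 0.152 and 0.093. LAC16 (AT5G58910), the 1 laccase measured of 17, had 6.01 and 5.66 in the overexpressor, 6.40 and 6.16 in the mutant, and 6.37 and 7.08 in WT. It was at -0.89 ± 0.231 in the overexpressor (SE, adjusted p = 0.252) and -0.54 without WT replicate 2, and at -0.44 and -0.09 in the mutant.

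Of 10 Casparian strip genes 2 were measured (GSO1 and AT1G61590). Their median of -0.23 in the overexpressor and -0.264 in the mutant turned to 0.092 and 0.058 without WT replicate 2. Of 17 scavengers of hydrogen peroxide and superoxide 2 were measured (SAPX and TAPX), with medians of 0.13 and 0.145, or 0.046 and 0.061 without WT replicate 2, and 0 of 13 suberin genes. No gene of these lists passed in any of the 3 comparisons; unadjusted p was under 0.05 in 1 of the NADPH oxidases, in LAC16 and in TAPX, each in the overexpressor against WT (11.8% of all probe sets).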

How the data were processed

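The authors deposited linear signal intensity per probe set for the 6 ATH1 arrays. Per the submitters' processing notes, RMA and Affymetrix Expression Console were used; their versions are not given in the sources used here. Log2 was taken of the deposited intensity values with no pseudocount. The deposited value table of the series, used as an alternative, differed by at most 5e-06, and a table of correlations between arrays was not used. Detection calls were not used, and precision is limited by having 2 arrays a group. Leaving out 64 controls, all 22746 probe sets were fitted with limma 3.58.1 under R 4.3.3 (lmFit, then eBayes, with a mean per genotype; residual degrees of freedom 3, prior 4.25). Tests were two-sided, Benjamini-Hochberg adjustment ran over all probe sets of a contrast, and a call is an adjusted p under 0.05. With 2 arrays on each side, no exact permutation test could give a p under 0.333.

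Names came from the platform's annotation, with symbols and gene neighbours from a TAIR10.1 gene table whose coordinates served only to order the genes. It gave 1 gene for 13513 probe sets, several for 503 and none for 8730, and 13436 matched a locus. No peroxidase described had more than 1 probe set, so taking all probe sets of a gene changed nothing. The members and lists were chosen with earlier results of these data known. Values per array are given for called genes, for up to 4 genes per contrast and direction with the largest change and no overlap of the arrays, for the 5 highest and 3 lowest mean signals (in short), and for the lists. The fit was tested on simulated data. There, 0% of 1.5-fold changes were recovered in each comparison, and 86.2% to 89.5% of 2-fold changes. The simulation gave each probe set the same spread in all 3 groups. In the data, the root mean square replicate SD over all probe sets was 0.191 in WT, 0.101 in the overexpressor and 0.114 in the mutant. Recovery with a wider WT was not tested. The root hair peroxidase AT1G34510, 2.7-fold lower in the overexpressor than in WT, did not pass (limma adjusted p = 0.128). A gene that did not pass may thus still have changed by 1.5-fold, and against WT by 2-fold. Alternatives were centred medians, quantile normalization, a filter on mean log2 signal under 6, the 4 arrays compared, limma-trend, array weights, a replicate block and single arrays left out.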

Additional observations from a re-analysis of the deposited data

How the results depend on the processing

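The median of the 44 genes ran from -0.22 to -0.09 in the overexpressor and from -0.179 to -0.059 in the mutant against WT over the alternatives, both nearest 0 without WT replicate 2, and from -0.025 to 0.042 for overexpressor minus mutant. The 1 difference past the threshold in the fit reported, AT5G64120 in the overexpressor against WT, was negative under every alternative. Differences of other genes did turn their sign between the WT arrays. That of AT2G35380 in the overexpressor was -0.46 without WT replicate 1 and 0.05 without WT replicate 2. The count of peroxidases called in the overexpressor against WT, 1 in the fit reported, was 0 with only the 4 arrays compared and 2 with the replicate block, and 0 to 12 without single arrays. In the mutant against WT it was 0 to 12 without single arrays. Between overexpressor and mutant it was 1 with only the 4 arrays compared, 2 with array quality weights and 0 to 1 without single arrays. The 12 in each line came without WT replicate 1, where the lone control is WT replicate 2, which stood apart; over all probe sets there were then 3790 and 2743 calls. In such fits the single array left in a group is taken to have the spread of the other genotypes. Over all probe sets the replicate block gave 167, 2 and 30 calls, against 23, 1 and 3, for the overexpressor and the mutant against WT and between the lines, and for the first limma-trend gave 38, array weights 12, the filter on dim probe sets 14 and the 4 arrays alone 0. Between the lines, array weights gave 100 and the 4 arrays alone 58. Without WT replicate 2 there were 36 and 7 calls against WT, and without any 1 overexpressor or mutant array 0 for the overexpressor. Same-numbered arrays share only a number: their deviations correlated at 0.053, 0.316 and 0.125 between the groups. In other cases the cause was not tested. Faint signals limit the 15 genes with a mean log2 signal under 6.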
